A study of Mus musculus with 8 samples.

Results

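Apoe, Fn1, Stab1, Tns1, Pbld2, Lyz2 and Csf1r are 7 of the 15917 genes in a count table of mouse blood eosinophils, granulocytes of type 2 immunity. They were chosen by measured values: the first 5 were picked for a far lower level after at least 1 of 2 cytokine mixtures, and Lyz2 and Csf1r were added as genes of the monocyte and macrophage lineage to read beside them. The choice set no fold threshold. It rests on the same libraries that are described here, so the 7 genes are given by their values and without a p in any contrast. All 7 were in the table and all 7 passed the filter on low counts. The name under which they were grouped, macrophage-like genes lost on stimulation, does not hold for all of them in these data: Csf1r was higher with both mixtures, Tns1 was higher with one, and Pbld2 and Lyz2 were not lower with the other.

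The study measured polyadenylated RNA by stranded sequencing (TruSeq Stranded mRNA) in 8 libraries, 4 groups of 2. Every culture lasted 18 h. One experiment set cells without any cytokine (CN) beside cells given IFN-γ and TNF-α at 15 ng/mL (E1). The other set IL-5 alone at 10 ng/mL (E0) beside IL-5, GM-CSF and IL-4 at 10 ng/mL plus IL-33 at 30 ng/mL (E2). All 4 groups were C57BL/6 blood cells enriched by removing CD90-positive and B220-positive cells with magnetic beads, and a stained cytospin was read as more than 97% pure. The protocol names IL-5 transgenic NJ.1638 mice, a line with IL-5 made by T cells and with many blood eosinophils, while the genotype label of all 8 samples reads WT. The labels give neither age nor sex, and they leave unsaid how many animals stood behind each replicate.

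Library totals ran from 60809057 to 95065752 counts. An approximate upper limit of counting error for an observed 0 is 3 counts. These came to 0.0316 to 0.0493 CPM, the count scaled to the library total. In all 4 groups replicate 1 held Y-linked Ddx3y at 62.5 to 95.6 CPM and replicate 2 held 0 counts of it, while Xist stood at 796 to 1142 CPM in replicate 2 and at 5 to 12 counts in replicate 1. The 2 replicates of each group therefore came from different animals, and the spread between them includes a difference of sex. Eosinophil transcripts were abundant in every library: Ccr3, the eotaxin receptor, averaged 1254 to 2576 CPM over the groups, and Siglecf, a sialic acid-binding surface receptor, averaged 744 to 971 CPM. Levels are CPM with TMM scaling, given per library and as mean ± SD (n = 2), and log2 fold changes carry their standard error (SE).

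Monocytes and macrophages arise under CSF1 signalling through the receptor tyrosine kinase CSF1R. Tissue macrophages secrete apolipoprotein E, which carries cholesterol out of lipid-laden cells, they secrete lysozyme, which cuts bacterial cell walls, and they take up altered lipoproteins and cell debris through scavenger receptors such as stabilin-1. Eosinophils also come from myeloid progenitors and share part of this gene programme. In RNA from a whole culture, fewer cells of a type and less RNA per cell cannot be told apart, and this holds for every value below.

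Of the 7 genes, 4 were lower and 3 higher in E1 than in CN, and 5 were lower and 2 higher in E2 than in E0. Apoe alone was lower by at least 1 on the log2 scale in both contrasts. In E1 versus CN, 3 of the 7 were at -1 or lower, against 4.15% of the 15913 genes tested, and in E2 versus E0 it was 4 of 7 against 6.94%. The choice of the genes used those contrasts, so nothing is read from these shares. The median log2 fold change of the 7 was -0.92 in E1 versus CN, beside -0.01 over all genes, and -2.25 in E2 versus E0, beside -0.02. The 2 libraries of a group did not overlap with those of the other group for 6 of the 7 genes in E1 versus CN (54.1% of all genes) and for all 7 in E2 versus E0 (73.1% of all genes). Of these, 4 were lower in E1 (27.5% of all genes) and 2 higher (26.5%), and 5 were lower in E2 (37.2%) and 2 higher (35.9%). The exception was Pbld2 in E1 versus CN.

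**Figure D1:**
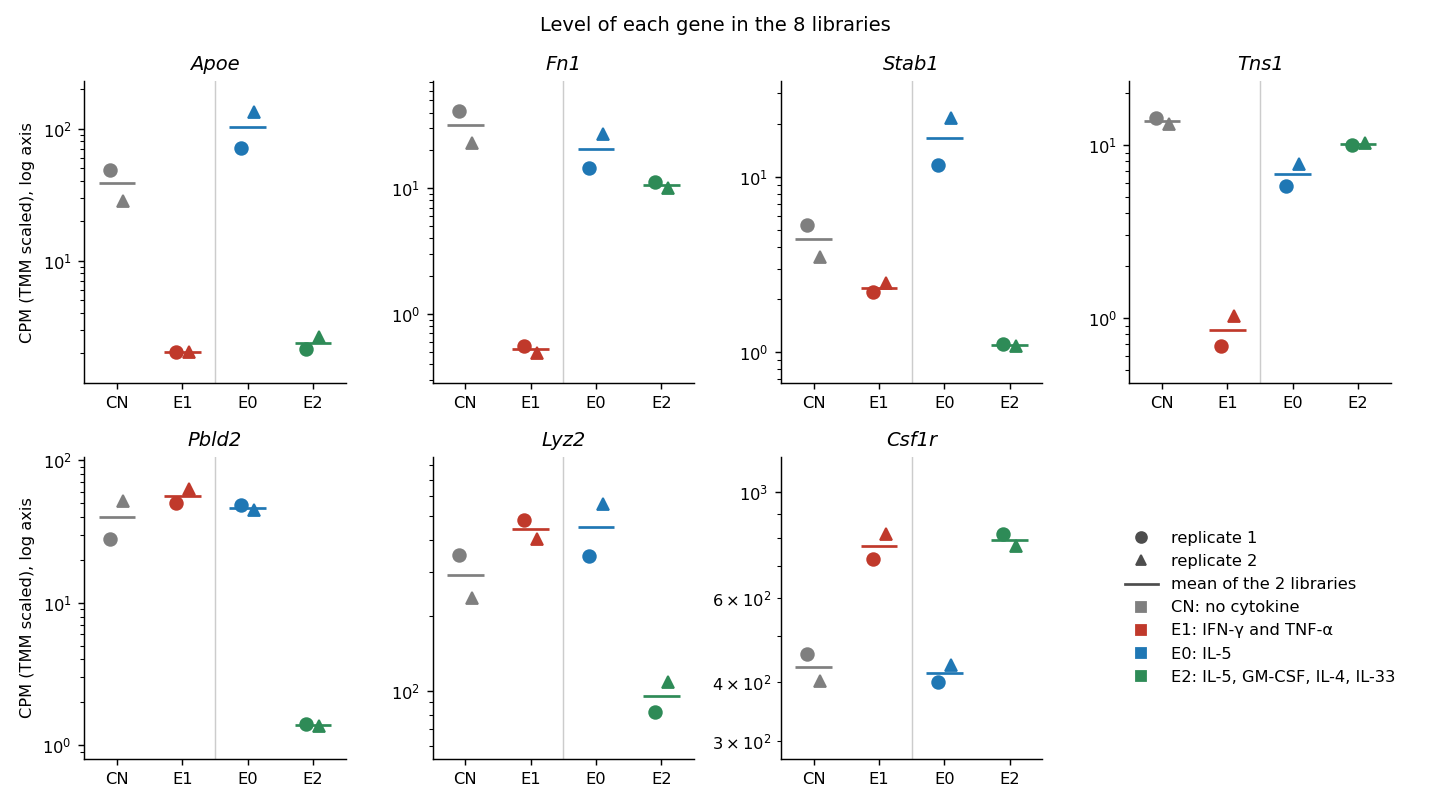
Level of each of the 7 genes in the 8 libraries, as TMM-scaled CPM on a log axis with its own range for each gene. Circles are replicate 1, triangles replicate 2 and bars the mean of the 2 libraries, and a grey line separates the experiments. Apoe is near 2 CPM in both E1 and E2, Fn1 and Tns1 are lowest in E1, Stab1, Pbld2 and Lyz2 are lowest in E2, and Csf1r is highest in E1 and E2.

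Apoe (ENSMUSG00000002985, mm10 chromosome 7, 19696109 to 19699188, minus strand) encodes apolipoprotein E. It stood at 48.8 and 28.2 CPM in the CN libraries and at 2.03 and 2.04 CPM in the E1 libraries. In the second experiment it stood at 71.9 and 133 CPM in E0 and at 2.13 and 2.65 CPM in E2. Both libraries of each cytokine mixture lay far below both of their controls, and the E1 and E2 levels, from separate experiments, were close to each other. Group means were 38.5 ± 14.5 CPM (CN), 2.04 ± 0.0101 (E1), 102 ± 43 (E0) and 2.39 ± 0.364 (E2). The mean was 18.9-fold lower in E1 than in CN (log2 fold change -4.24 ± 0.37) and 42.8-fold lower in E2 than in E0 (-5.42 ± 0.38). Ordered from the lowest of 15913 log2 fold changes, Apoe had rank 26 in the first contrast and rank 12 in the second. The control level itself was higher in E0 than in CN by 1.41 ± 0.31 on the log2 scale, with no overlap, but IL-5 and the experiment cannot be told apart there. The low levels rested on 150 and 170 counts in E1 and on 182 and 206 counts in E2.

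Genes that handle cholesterol and lipoproteins together with apolipoprotein E, or that are targets of the oxysterol receptors LXR, did not move as a block. Of 27 measured genes besides Apoe, 3 rose and 6 fell in E1 versus CN, and 18 passed in neither direction (17.3% of all genes were called there, 9.19% higher and 8.08% lower). In E2 versus E0, 8 rose and 11 fell (35.5% of all genes, 17% higher and 18.5% lower). The list's median log2 fold change was -0.14 and -0.12. Lpl, lipoprotein lipase, rose from 6.71 ± 1.91 CPM in E0 to 64.8 ± 2.74 in E2 (3.27 ± 0.25, adjusted p = 5.36e-05). In the same contrast Pltp, the phospholipid transfer protein, fell by 1.88 ± 0.16 (adjusted p = 9.9e-05), and Lrp1, a receptor that binds apolipoprotein E, fell by 1.85 ± 0.29 (adjusted p = 0.00183). Larger falls there were in genes averaging under 5 CPM in both groups, such as Abca9 (-5.66 ± 0.53, adjusted p = 0.000152) and Trem2 (-3.34 ± 0.43, 0.00072). Abca9 and Trem2 were also called lower in E1 (-2.63 ± 0.43 and -2.22 ± 0.45, adjusted p = 0.00359 and 0.0104). Abca1, the cholesterol exporter that loads apolipoproteins, had a log2 fold change of 0.99 ± 0.28 (adjusted p = 0.0269), a call lost without E0 replicate 1 (0.82) or E2 replicate 1 (0.67). In E1, Npc2, which moves cholesterol out of lysosomes, rose by 0.97 ± 0.07 (adjusted p = 4.35e-05) and Lrp8, another receptor for apolipoprotein E, fell by 0.90 ± 0.11 (adjusted p = 0.000898). The counts depended on single libraries: 2 genes fell in E1 without CN replicate 1 or E1 replicate 2, and 3 to 5 rose in E2 without E0 replicate 1, E0 replicate 2 or E2 replicate 1. The E2 versus E0 background had 3562 called genes without E0 replicate 1, 3567 without E2 replicate 1 and 3334 without E2 replicate 2, beside 5655 with all libraries.

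Stab1 (ENSMUSG00000042286, chromosome 14, 31139013 to 31168641, minus strand) encodes stabilin-1, a scavenger receptor of macrophages and sinusoidal endothelium. Its levels were 5.32 and 3.47 CPM in CN against 2.2 and 2.47 in E1, then 11.7 and 21.7 in E0 against 1.11 and 1.08 in E2. The 2 E2 libraries were the lowest of all 8 and the 2 E0 libraries the highest, and no group overlapped another. The mean in E2 was 15.2-fold below that in E0 (log2 fold change -3.93 ± 0.34, rank 31 from the lowest). E1 was 1.89-fold below CN (-0.92 ± 0.31, rank 786), which became -0.56 without CN replicate 1. E0 was above CN by 1.92 ± 0.30 on the log2 scale. Its exons overlap those of Nt5dc2 on the opposite strand, a gene with 2.45 ± 1.25 CPM in E0 and 0.392 ± 0.0266 in E2, and the strand setting of the counting is not given in the sources used here.

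Stab1 and Apoe were both lower in E1 and E2 than in their controls, though in E1 to a different degree (Pearson r = 0.91 and a root mean square difference of 1.30 between centred log2 levels, a description over 8 libraries that share 4 groups). By that difference Stab1 was nearer to Lyz2 (1.00), and Fn1 and Tns1 were nearer to each other (0.93). The 250 bases before the start of Stab1 and Apoe are shown because both genes were lower in E1 and E2 than in their controls. They come from RefSeq on GRCm38.p6, which held 5 of the 7 genes (Fn1 and Csf1r were not matched), and are written along the minus strand, 5′ to 3′. Capitals mark GAGGAA, a core of PU.1 sites, and TGCTGA, a core of MAF sites.
Apoe, chr7:19699189-19699438: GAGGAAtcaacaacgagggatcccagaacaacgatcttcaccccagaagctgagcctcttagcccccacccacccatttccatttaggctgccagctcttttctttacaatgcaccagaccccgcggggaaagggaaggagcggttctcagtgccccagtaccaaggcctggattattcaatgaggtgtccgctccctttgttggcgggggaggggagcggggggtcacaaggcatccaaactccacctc
Stab1, chr14:31168642-31168891: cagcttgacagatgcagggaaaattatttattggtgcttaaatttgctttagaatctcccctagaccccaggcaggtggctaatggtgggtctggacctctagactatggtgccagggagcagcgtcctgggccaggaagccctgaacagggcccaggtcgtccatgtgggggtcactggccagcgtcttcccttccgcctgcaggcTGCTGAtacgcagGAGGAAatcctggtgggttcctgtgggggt
The Apoe window held 1 GAGGAA and the Stab1 window 1 GAGGAA and 1 TGCTGA, searched on both strands. Of 32536 promoter windows of this length, 23.4% held GAGGAA and 16.1% held TGCTGA, so neither is rare. TTCNNNGAA, the site of STAT factors, its form with the wider STAT6 spacing, and TGANTCA, the AP-1 motif, were in none of the 5 windows and in 7.04%, 5.89% and 6.73% of all windows. The Lyz2 window held 1 TGCTGA, and the Tns1 and Pbld2 windows held none of the 5 motifs. The RefSeq starts of Lyz2, Tns1 and Pbld2 lie 49, 99 and 197 bases from the gene starts given here. The Lyz2 and Pbld2 windows therefore reach into the genes.

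Among 22 other scavenger and uptake receptors, 6 rose and 4 fell in E1 versus CN, and 6 rose and 9 fell in E2 versus E0, with medians of -0.06 and -0.09. The fallen ones in E1 numbered 2 without CN replicate 1 or without E1 replicate 1. Several of these genes also stand in the marker list of monocytes and macrophages. Olr1, a receptor for oxidised lipoprotein, rose with both mixtures, from 35.6 ± 13.7 to 75.3 ± 0.961 CPM in E1 (1.08 ± 0.21, adjusted p = 0.00809) and from 70.3 ± 1.43 to 255 ± 5.85 CPM in E2 (1.86 ± 0.21, adjusted p = 0.000389). Cxcl16, a membrane-bound chemokine that also takes up oxidised lipoprotein, rose by 2.90 ± 0.27 in E1 (adjusted p = 0.000166). Axl, a receptor for dying cells, rose by 2.11 ± 0.32 in E2 (adjusted p = 0.00151). Mrc1, the mannose receptor of macrophages, fell in E2 from 5.9 ± 2.11 to 0.81 ± 0.364 CPM (-2.86 ± 0.45, adjusted p = 0.00181), the direction that Stab1 had there.

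Fn1 (ENSMUSG00000026193, chromosome 1, 71585520 to 71653200, minus strand) encodes fibronectin, an adhesive glycoprotein of the extracellular matrix. It stood at 40.9 and 23.1 CPM in CN and at 0.561 and 0.491 CPM in E1, which rested on 47 and 36 counts. In the second experiment it stood at 14.4 and 27 CPM in E0 and at 11.2 and 10 CPM in E2. Among the 8, the 2 E1 libraries alone were under 1 CPM, while the CN and E0 libraries overlapped. The mean in E1 was 60.8-fold below that in CN (log2 fold change -5.92 ± 0.43, rank 10 from the lowest). The mean in E2 was 1.95-fold below that in E0 (-0.97 ± 0.32, rank 1171), and -0.44 without E0 replicate 2. An antisense gene (ENSMUSG00000073652) that overlaps Fn1 exons held 1.15 ± 0.457 CPM in CN and 0 counts in both E1 libraries.

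Tns1 (ENSMUSG00000055322, chromosome 1, 73910231 to 74124449, minus strand) encodes tensin-1, which links integrins to actin at sites of adhesion to fibronectin. Its levels were 14.3 and 13.2 CPM in CN against 0.681 and 1.02 in E1, then 5.79 and 7.7 in E0 against 9.91 and 10.2 in E2. No group overlapped another, with CN highest and E1 lowest, and E2 stood above E0. The E1 mean was 16.2-fold below that of CN (-4.02 ± 0.23, rank 32), on 57 and 75 counts. The E2 mean was 1.49-fold above that of E0 (0.57 ± 0.19). The change in the second experiment minus that in the first was 4.59 ± 0.29 on the log2 scale for Tns1 and 4.95 ± 0.52 for Fn1, a difference for which 25.2% of all genes were called (11.3% higher, 14% lower).

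Of 17 fibronectin receptors and matrix genes besides Fn1, 8 rose and 5 fell in E1 versus CN, and 6 rose and 7 fell in E2 versus E0, with medians of 0.54 and -0.10. The 5 became 3 without CN replicate 1. Vcan, the matrix proteoglycan versican, fell from 9.56 ± 2.66 to 0.554 ± 0.277 CPM in E1 (-4.12 ± 0.38, adjusted p = 0.000144), and in E2 versus E0 it had 5.79 ± 0.758 against 5.54 ± 1.48 CPM. Tgm2, transglutaminase 2, which crosslinks fibronectin, rose in both contrasts, by 3.08 ± 0.27 in E1 (adjusted p = 0.000105) and by 1.97 ± 0.26 in E2 (adjusted p = 0.000784). Itga5, the α5 chain of the classical fibronectin receptor, rose by 2.51 ± 0.12 in E2, to 49.3 ± 3.01 CPM (adjusted p = 5.43e-06). Itga4, the α4 chain of VLA-4, which also binds fibronectin, fell by 1.27 ± 0.12 there, to 200 ± 22.8 CPM (adjusted p = 0.000133). In E1 versus CN Itga4 rose by 1.05 ± 0.12, from 448 ± 18.5 to 929 ± 76.9 CPM (adjusted p = 0.000404). Itgb5, an integrin β chain, fell the most of the list in E2, from 11.7 ± 3.1 to 1.05 ± 0.0423 CPM (-3.48 ± 0.47, adjusted p = 0.000942). It fell in E1 as well, by 1.75 ± 0.45 (adjusted p = 0.0318). Sdc3 and Sdc4, membrane proteoglycans, rose by 3.43 ± 0.44 and by 2.88 ± 0.37 in E1 (adjusted p = 0.000992 and 0.000902).

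Of 24 other tensins and focal adhesion genes, 3 rose and 4 fell in E1 versus CN, and 12 rose and 3 fell in E2 versus E0, with medians of -0.06 and 0.23. The 12 became 4 without E0 replicate 2 or E2 replicate 1 and 7 without E2 replicate 2. The 3 became 1 without CN replicate 1, CN replicate 2 or E1 replicate 2, and the 4 became 1 without CN replicate 1 and 2 without E1 replicate 2, E2 replicate 1 or E2 replicate 2. Actn1, α-actinin, which crosslinks actin, fell from 70.6 ± 3.91 to 28.3 ± 2.11 CPM in E1 (-1.32 ± 0.13, adjusted p = 0.000222). Vcl, vinculin, rose from 520 ± 36.5 to 980 ± 76.3 CPM in E2 (0.91 ± 0.09, adjusted p = 0.000257), and Lpp rose by 1.56 ± 0.10 there (adjusted p = 2e-05). Tns3, another tensin, fell by 0.91 ± 0.14 in E2 (adjusted p = 0.002), where Tns1 was higher.

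**Figure D2:**
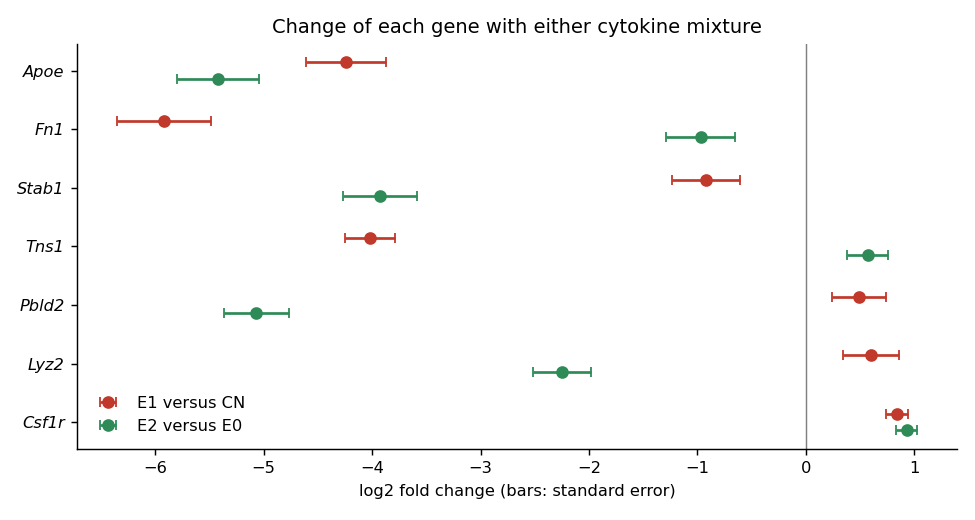
Log2 fold change of each of the 7 genes in E1 versus CN (red) and in E2 versus E0 (green), with bars for the standard error. Apoe lies at -4.24 and -5.42. Fn1 and Tns1 lie far below 0 in red only, Stab1, Pbld2 and Lyz2 lie below -2 in green only, and Csf1r lies at 0.84 and 0.93.

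Pbld2 (ENSMUSG00000020072, chromosome 10, 63024315 to 63058813, plus strand) encodes a protein with a phenazine biosynthesis-like domain. Its levels were 28.1 and 51.9 CPM in CN against 50 and 62.3 in E1, then 48.6 and 44.4 in E0 against 1.41 and 1.36 in E2. The CN range held both E0 libraries and reached into the E1 range, and the E2 libraries alone were low, on 120 and 106 counts. The E2 mean was 33.6-fold below that of E0 (-5.07 ± 0.30, rank 16), while E1 differed from CN by 0.49 ± 0.25. Of the 50-base stretches of its transcripts, 11.9% also occur in Pbld1, so the counting of reads from that portion may have split or dropped them.

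Lyz2 (ENSMUSG00000069516, chromosome 10, 117277331 to 117282321, minus strand) encodes lysozyme M, abundant in monocytes, macrophages and neutrophils. Its levels were 348 and 235 CPM in CN against 483 and 404 in E1, then 345 and 561 in E0 against 82.2 and 108 in E2. The 2 E2 libraries were the lowest of the 8, E1 lay above CN without overlap, and the E0 range held part of CN and all of E1. The E2 mean was 4.76-fold below that of E0 (-2.25 ± 0.27, rank 177), and the E1 mean was 1.52-fold above that of CN (0.60 ± 0.26).

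Lyz2 lies beside Lyz1, a near copy. The first 60 coding bases of both are printed to show how few bases tell reads of the 2 genes apart. They are from GENCODE M21 on GRCm38, minus strand, with capitals at the bases that differ.
Lyz2, chr10:117282183-117282242: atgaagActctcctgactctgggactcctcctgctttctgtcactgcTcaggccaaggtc
Lyz1, chr10:117292779-117292838: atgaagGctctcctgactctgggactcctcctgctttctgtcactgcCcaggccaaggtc
In this stretch 2 bases differ, and over the 444 coding bases 22 differ (95% identical). Of the 50-base stretches of Lyz2 transcripts, 15.4% also occur in Lyz1. Lyz1 stood at 0.822 and 0.757 CPM in CN against 19.5 and 0.695 in E1, then 8.45 and 27.8 in E0 against 0.669 and 1 in E2. It was high in 1 E1 library and in both E0 libraries. Its log2 fold change in E2 versus E0 was -4.44 ± 1.28 (adjusted p = 0.0276), a call lost without E0 replicate 2 (-3.34), E2 replicate 1 (-4.18) or E2 replicate 2 (-4.76). In every library Lyz1 had far fewer counts than Lyz2.

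Csf1r (ENSMUSG00000024621, chromosome 18, 61100598 to 61132149, plus strand) encodes the receptor for CSF1 and IL-34. Its levels were 457 and 401 CPM in CN against 722 and 816 in E1, then 400 and 434 in E0 against 817 and 772 in E2. All 4 libraries with a cytokine mixture lay above all 4 others, E1 and E2 overlapped, and so did CN and E0. The mean was 1.79-fold higher in E1 than in CN (0.84 ± 0.10) and 1.9-fold higher in E2 than in E0 (0.93 ± 0.10). The exons of Hmgxb3 overlap it on the opposite strand, and Hmgxb3 ranged only from 30.8 ± 1.34 CPM in E0 to 40.8 ± 0.932 in E2.

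Of 24 genes around the CSF1 receptor and of myeloid regulators, 7 rose and 4 fell in E1 versus CN, and 10 rose and 8 fell in E2 versus E0, with medians of 0.13 and 0.08. The 10 became 6 without E0 replicate 1 or E2 replicate 2. Csf1, a ligand of the receptor, rose from 291 ± 7.14 to 449 ± 26.9 CPM in E1 (0.62 ± 0.08, adjusted p = 0.00126) and fell from 437 ± 33.6 to 141 ± 6.06 CPM in E2 (-1.63 ± 0.09, adjusted p = 9.03e-06). Cebpa, a factor of myeloid commitment, fell by 1.20 ± 0.19 in E1 (adjusted p = 0.00353) and fell by 1.45 ± 0.19 in E2 (adjusted p = 0.000891). Runx1, which regulates Csf1r in myeloid cells, fell by 0.64 ± 0.07 in E1 (adjusted p = 0.000325) and rose by 1.29 ± 0.07 in E2 (adjusted p = 9.03e-06). Csf3r, the G-CSF receptor of neutrophils, fell in E1 from 416 ± 22.7 to 30.2 ± 3.55 CPM (-3.79 ± 0.26, adjusted p = 3.06e-05).

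Levels per kilobase of exon allow the 7 genes to be ordered within a group. In CN, Lyz2 had 222 ± 60.7 CPM per kilobase and Csf1r 74.4 ± 6.83, followed by Apoe at 18 ± 6.79 and Pbld2 at 16.1 ± 6.78, which did not differ beyond their spread. Fn1 at 2.74 ± 1.08, Tns1 at 0.86 ± 0.0509 and Stab1 at 0.427 ± 0.127 were the lowest 3. In E0 the order was Lyz2 (344 ± 116), Csf1r (72.3 ± 4.16), Apoe (47.8 ± 20.1), Pbld2 (18.7 ± 1.19), Fn1 (1.77 ± 0.765), Stab1 (1.62 ± 0.688) and Tns1 (0.421 ± 0.0841), with Fn1 and Stab1 inside each other's spread. In E1 only Lyz2 (337 ± 42.4), Csf1r (133 ± 11.5) and Pbld2 (22.6 ± 3.5) stayed above 1 CPM per kilobase. In E2 they were Csf1r (138 ± 5.42), Lyz2 (72.4 ± 14.1) and Apoe (1.12 ± 0.17), and Csf1r stood above Lyz2 in that group alone.

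Beside the 7 genes, 21 measured markers of monocytes and macrophages other than Lyz2 and Csf1r were read. In E1 versus CN, 9 rose, 4 fell and 8 passed in neither direction, with a median of 0.91. In E2 versus E0, 6 rose, 14 fell and 1 passed in neither direction, with a median of -1.32. Markers thus moved both ways, as the 7 genes did. Cx3cr1, the fractalkine receptor of monocytes, fell in E2 from 13.5 ± 3.73 to 0.562 ± 0.297 CPM (-4.59 ± 0.42, adjusted p = 0.000136). In E1 it had a log2 fold change of -1.68 ± 0.38 (adjusted p = 0.0174), a call lost without CN replicate 1 (-1.42) or E1 replicate 1 (-1.35). F13a1, the factor XIII subunit of monocytes and platelets, fell in E1 from 6.94 ± 1.84 to 0.0852 ± 0.053 CPM, on 4 and 9 counts (adjusted p = 3.02e-05). In E2 it fell from 6.91 ± 2.21 to 1.81 ± 0.212 CPM (-1.93 ± 0.31, adjusted p = 0.0022). Mrc1, which fell in E2, was lower in E1 as well, on 3 and 0 counts (-4.78 ± 0.79, adjusted p = 0.00386). Cx3cr1, F13a1 and Mrc1 were thus called lower in both contrasts.

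Of the other defining markers named here, Ccr2 had negative values in both contrasts, and the rest did not follow Apoe in both. Cd14, the coreceptor for lipopolysaccharide, rose in both contrasts, by 2.44 ± 0.21 in E1 (adjusted p = 0.000104) and by 1.00 ± 0.20 in E2 (adjusted p = 0.0063). Mertk, a receptor for dying cells, rose in E1 from 0.256 ± 0.175 to 3.55 ± 1.55 CPM (3.76 ± 0.53, adjusted p = 0.00155) and fell in E2 from 2.51 ± 0.8 to 0.328 ± 0.1 CPM (-2.93 ± 0.51, adjusted p = 0.00319). Ly6c2, a surface antigen of inflammatory monocytes, rose from 99 ± 8.74 to 3999 ± 304 CPM in E1 (5.34 ± 0.22, adjusted p = 1.33e-06) and fell by 1.32 ± 0.19 in E2 (adjusted p = 0.00118). Fcgr1, the high-affinity IgG receptor, rose by 1.46 ± 0.24 in E2 (adjusted p = 0.00254) and had -0.29 ± 0.24 in E1 (adjusted p = 0.482). The complement genes C1qb and C1qc fell by 2.26 ± 0.38 and fell by 3.04 ± 0.49 in E2 (adjusted p = 0.00278 and 0.00219), and in E1 they had 0.91 ± 0.42 and 1.81 ± 0.61 (adjusted p = 0.195 and 0.0819). Ccr2, which draws monocytes out of the marrow, had -0.91 ± 0.26 in E1 (adjusted p = 0.0506) and -0.93 ± 0.26 in E2 (adjusted p = 0.0258, a call lost without E0 replicate 2 at -0.50 or E2 replicate 1 at -0.87, and without E2 replicate 2). The E1 values of both Ccr2 and C1qc lay close to the threshold. Ccr2 in E1 passed it with a replicate block (-0.88), library totals, DESeq2 (-0.90) or 4 libraries only (-0.89), and without CN replicate 2 (-1.20) or either E0 library (-0.91). C1qc in E1 passed it with the replicate block (1.75) and without E1 replicate 1 (2.32).

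**Figure D3:**
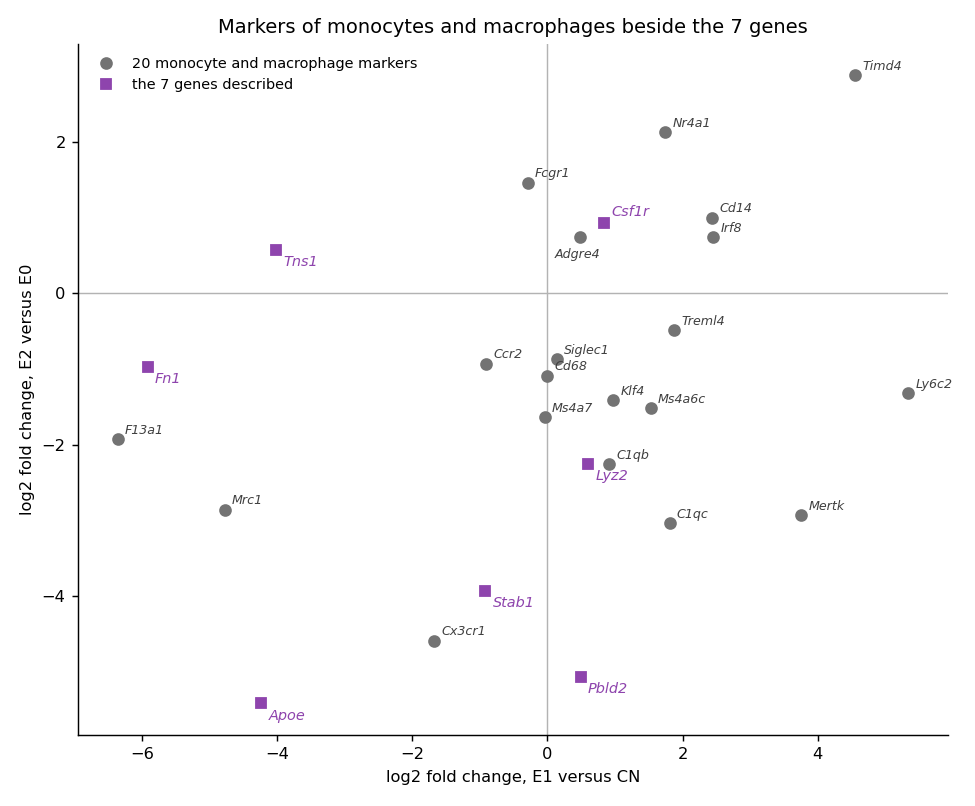
Log2 fold change in E1 versus CN (horizontal) against that in E2 versus E0 (vertical) for 20 of the 21 markers of monocytes and macrophages (grey circles) and the 7 genes (purple squares), with lines at 0. Markers spread to all sides of both lines: Cx3cr1 lies at -1.68 and -4.59, and Cd14 lies at 2.44 and 1.00 near Csf1r. The fitted horizontal values of Mrc1 and Timd4 rest on 3 counts in E1 and 2 counts in CN.

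The summed level of the 21 markers was 561 to 632 CPM in CN, 4495 to 4925 in E1, 684 to 713 in E0 and 953 to 980 in E2, so it was not lower with either mixture. Ly6c2 and Adgre4 made up most of it, and they were set apart after seeing the data. The other 19 markers summed to 78.4 to 106 CPM in CN, 141 to 148 in E1, 126 to 189 in E0 and 113 to 118 in E2. That sum was higher in both E1 libraries than in both CN libraries, and lower in both E2 libraries than in both E0 libraries. It too weighs the abundant genes most. The largest rises in CPM from CN to E1 among the 19 were in Irf8 (8.32 ± 1.41 to 45.6 ± 8.63) and Cd14 (3.69 ± 0.294 to 20 ± 1.54). Ccr2 went the other way (30.6 ± 9.71 to 16.3 ± 0.302). Of the 21 markers, 2 had 0 counts in a library, Timd4 in CN replicate 2 and Mrc1 in E1 replicate 2, and no marker was at 0 in both libraries of a group. The part that other cells had in the levels of the 7 genes was not tested.

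The 2 replicates of the control groups differed in the same genes. In E0, replicate 2 over replicate 1 was 1.85 for Apoe, 1.88 for Fn1, 1.86 for Stab1, 1.63 for Lyz2, 1.33 for Tns1, 1.08 for Csf1r and 0.914 for Pbld2, where 4.8% of all genes reached 1.5. In CN the order was the other way round, with 0.579 for Apoe, 0.563 for Fn1, 0.652 for Stab1, 0.676 for Lyz2, 0.92 for Tns1, 0.878 for Csf1r and 1.84 for Pbld2. The markers of monocytes and macrophages moved likewise: their median ratio was 1.51 in E0, where 17 of 21 were higher in replicate 2, and 0.684 in CN, where 2 of 21 were. The 15 neutrophil markers shifted the same way, with a median of 1.43 in E0 (10 higher in replicate 2) and 0.867 in CN (5 higher), and had 0.846 in E1 and 1.37 in E2. In E1 and E2 the monocyte and macrophage markers' median ratios were 1.03 and 1.01, and the 14 eosinophil markers had medians of 0.88 to 0.941 over the 4 groups. The 9 dendritic cell markers shifted likewise, with medians of 0.779 in CN (2 higher in replicate 2) and 1.19 in E0 (6 higher). Medians in CN and E0 were 0.684 and 0.972 for basophil and mast cell markers and 0.415 and 0.0826 for platelet and erythroid markers. They were 1.03 and 0.989 for T and NK cell markers and 1.09 and 1 for B cell markers. Apoe, Fn1, Stab1 and Lyz2 were thus high in the control library in which the monocyte, neutrophil and dendritic cell markers were high, and Pbld2 was not. What part this had in the differences between groups was not tested.

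**Figure D4:**
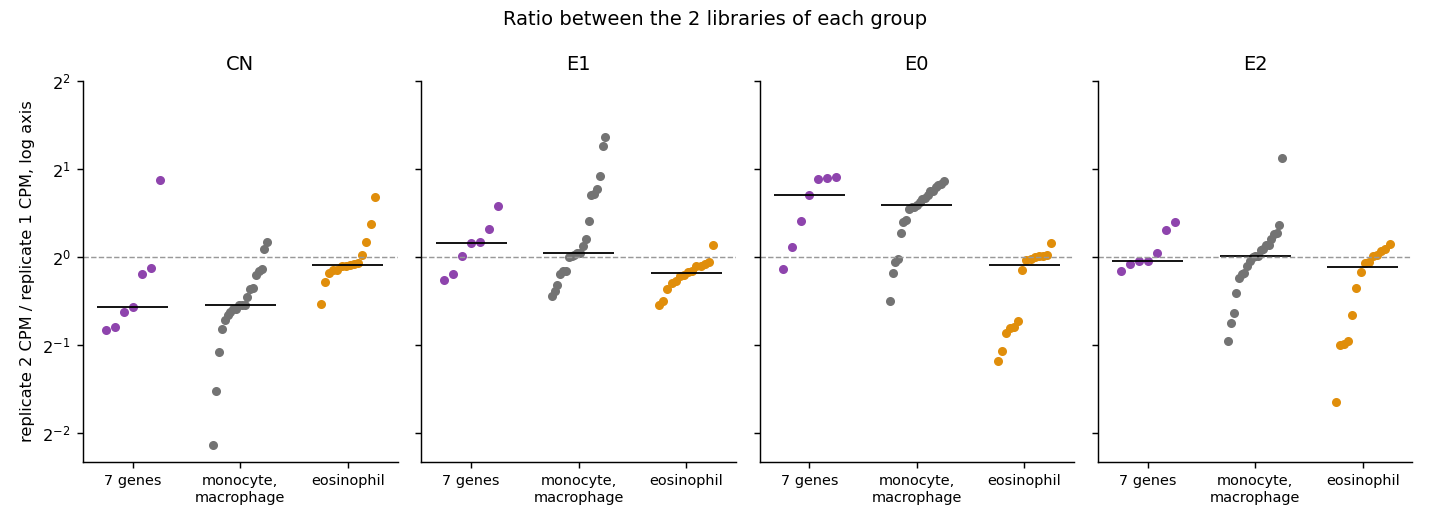
Ratio of the replicate 2 level to the replicate 1 level within each group, on a log axis, for the 7 genes (purple), 21 markers of monocytes and macrophages (grey) and 14 eosinophil markers (orange). Each point is a gene, bars are medians, the dashed line is a ratio of 1, and ratios with a count of 0 are not drawn. The marker medians are 0.684 in CN and 1.51 in E0, and close to 1 in E1 and E2.

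Markers of eosinophils and neutrophils were read beside the 7 genes. Of 14 eosinophil markers, 0 rose and 3 fell in E1 versus CN, and 4 rose and 8 fell in E2 versus E0, with medians of -0.20 and -0.52. The 3 became 1 without CN replicate 1 or E1 replicate 2, and the 8 became 4 without E0 replicate 1 or E2 replicate 2. Their summed level ran from 8227 CPM in E1 replicate 2 to 10980 CPM in CN replicate 1. That sum weighs the abundant genes most, and less abundant markers changed more. Ccr3 fell by 1.04 ± 0.09 in E2 (adjusted p = 9.72e-05). Ear1 fell there from 92.4 ± 46.2 to 14.3 ± 10.4 CPM (-2.68 ± 0.51, adjusted p = 0.00455). Also lower in E2 were Prg3 (-2.29 ± 0.37, adjusted p = 0.00213), Epx (-1.73 ± 0.40, 0.0115), Prg2 (-1.10 ± 0.29, 0.0194) and Il5ra (-0.35 ± 0.08, 0.0131). Without E0 replicate 1, Epx had -1.02 and Prg2 -0.61. Among the 4 that rose were Il1rl1 (0.51 ± 0.09, adjusted p = 0.00283) and Siglecf (0.28 ± 0.09, 0.0379). Of 15 neutrophil markers, 1 rose and 8 fell in E1 versus CN, and 0 rose and 6 fell in E2 versus E0, with medians of -0.70 and -0.85. The 8 became 3 without CN replicate 1 and 4 without E1 replicate 1 or E1 replicate 2, and the 1 became 2 without E1 replicate 2. Ly6g, the marker that rose in E1, went from 6.83 ± 0.322 to 63.2 ± 1.53 CPM there (3.21 ± 0.12, adjusted p = 9.63e-07). In E2 it fell by 1.99 ± 0.13 (adjusted p = 2.75e-05). Mmp8, neutrophil collagenase, fell by 2.85 ± 0.25 in E1 (adjusted p = 0.000105) and fell by 3.55 ± 0.25 in E2 (adjusted p = 3.81e-05). Cxcr2, a chemokine receptor of neutrophils, fell by 2.72 ± 0.25 in E1 (adjusted p = 0.000134). Retnlg, a resistin-like secreted protein, fell in E2 from 1163 ± 135 to 25.4 ± 2.97 CPM (-5.52 ± 0.15, adjusted p = 5.89e-07). The summed neutrophil markers were 3204 to 3670 CPM in CN, 1736 to 2276 in E1, 3193 to 3994 in E0 and 1158 to 1603 in E2, lower with both mixtures without overlap. For the risen eosinophil markers in E1 and the risen neutrophil markers in E2, the count was 0 also at an unadjusted edgeR p under 0.05 and with DESeq2. The part of these cells in the levels of the 7 genes was not tested.

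The genes with the most similar pattern were found by the root mean square difference (RMS) of centred log2 levels over the 8 libraries, among 8940 named genes averaging at least 5 CPM. Nearest to Apoe was Mmp8 (RMS 1.03, Pearson r = 0.951), with 113 ± 0.775 CPM in CN, 15.6 ± 0.19 in E1, 110 ± 34.2 in E0 and 9.36 ± 2.9 in E2. Next were Cd93 (1.21) and Ugt1a6b (1.22), while Stab1 stood at 1.30. Nearest to Fn1 were Vcan (0.81), Tns1 (0.93) and Csf3r (1.00), and nearest to Tns1 were Vcan (0.26, r = 0.988), Cd177 (0.56) and Cxcr2 (0.60). Fn1 and Tns1 had r = 0.95 with each other. Nearest to Stab1 were Slc16a9 (0.44), Unc5c (0.50) and Cd93 (0.57). Pbld2 was nearest to Retnlg (0.52), Il15 (0.60) and Col11a2 (0.82), genes low in E2 alone. Lyz2 was nearest to Ldhd (0.29), Creg1 (0.32) and Parp8 (0.33). Csf1r was nearest to Fgr, a tyrosine kinase of the Src family (0.06, r = 0.991), then to Acp2 (0.08) and Mapkapk2 (0.11), all higher in E1 and E2 than in their controls. Among the 7 themselves, Pbld2 and Lyz2 had r = 0.92, and Apoe and Csf1r had r = -0.95. All these correlations are over 8 libraries that share 4 groups and describe these libraries only.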

How the data were processed

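Poly(A) RNA of 8 eosinophil libraries was sequenced. The deposited table holds raw read counts per Ensembl gene, and per the submitters' processing notes the authors used STAR, featureCounts and mm10. The sources used here do not give versions, annotation or strand setting. Of 15918 rows, 1 had no gene name, equalled the column totals (100% of the named counts) and was left out. Of 15917 IDs, 15730 matched a symbol. The counts went through edgeR 4.0.16 (R 4.3.3) with filterByExpr (4 genes removed), TMM, a model of group means on 8 libraries (4 residual degrees of freedom) and a two-sided quasi-likelihood F test. Genes were called at a Benjamini-Hochberg adjusted p under 0.05 over 15913 genes. The fit was tested on simulated data. Positions and exon lengths are from GENCODE M21. The 7 genes and all lists were chosen with earlier results of these data known. From each list, up to 3 called genes each way with the largest change and at least 5 CPM could be named, beside defining markers and paralogs. The values of 1 marker are not reported here. Alternatives were RLE scaling, library totals, other filters, DESeq2 1.42.0, 4 libraries only, a replicate block and leaving out each library. No 2 libraries of a group agreed within sampling noise. Intervals and floors cover counting error only, since PCR reads without molecular identifiers are not independent molecules.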

Additional observations from a re-analysis of the deposited data

How the results depend on the processing

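The direction of each of the 7 genes in E1 versus CN and in E2 versus E0 was kept under every alternative run. With 1 library left out, the log2 fold changes in E1 versus CN lay between -4.58 and -3.78 for Apoe, -6.27 and -5.43 for Fn1, -1.19 and -0.56 for Stab1, -4.34 and -3.75 for Tns1, 0.13 and 1.00 for Pbld2, 0.35 and 0.93 for Lyz2, and 0.75 and 0.95 for Csf1r. In E2 versus E0 they lay between -5.79 and -4.91 for Apoe, -1.35 and -0.44 for Fn1, -4.30 and -3.41 for Stab1, 0.38 and 0.79 for Tns1, -5.13 and -5.00 for Pbld2, -2.56 and -1.86 for Lyz2, and 0.87 and 0.99 for Csf1r. In E0 versus CN the sign turned for Pbld2 without CN replicate 1 (-0.16, with a highest value of 0.72 when CN replicate 2 is left out), and for Csf1r with library totals (0.02), without CN replicate 1 (0.05) and without E0 replicate 1 (0.02), with -0.13 without CN replicate 2. The cause was not tested.

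Replicate numbers had correlated deviations (0.499 between CN and E1, 0.586 between E0 and E2, 0.173 between CN and E0 and 0.223 between E1 and E2). Replicate 1 carried Y-linked transcripts in all 4 groups and replicate 2 Xist, so a block on the number is also a block on sex, while the labels do not say that a number marks a shared animal or day. With a replicate block, 5521 genes were called in E1 versus CN, 8514 in E2 versus E0 and 6821 in the difference of the 2 responses, beside 2749, 5655 and 4018 without it. With 1 library left out these counts ranged from 1904 to 2484, from 3334 to 5929 and from 2715 to 3768, where the lone library of a group is assumed to vary like the others. With library totals as scaling, 38.6% of the calls in E1 versus CN were higher, beside 53.2% with TMM. Monocyte and macrophage markers called with 1 library left out numbered 9 to 10 higher and 3 to 5 lower in E1, and 5 to 6 higher and 10 to 14 lower in E2. Over 1768 recomputed results of named list genes, 1667 kept their call, 87 lost it, 14 gained it and 0 called ones changed sign. With groups of 2, differences within the spread of the controls, such as that of Pbld2 in E1, are not resolved.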

Other observations

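Markers of the remaining blood and tissue cells were read in the same fits. Of 9 dendritic cell markers, 4 rose and 2 fell in E1 versus CN, and 5 rose and 0 fell in E2 versus E0 (1 lower at an unadjusted edgeR p under 0.05, 0 with DESeq2), with medians of 0.59 and 0.80. Without E0 replicate 1 or E2 replicate 2 the 5 became 3, and without E2 replicate 1 they became 2, with 1 fall, and the 2 falls in E1 became 1 without CN replicate 1 or E1 replicate 1. Ccr7, which guides cells to lymph nodes, rose from 2.03 to 42.1 CPM in E1 (4.37 ± 0.41, adjusted p = 0.000165), and Batf3, a transcription factor of dendritic cells, rose by 1.96 ± 0.16 in E2 (adjusted p = 6.69e-05). Of 7 basophil and mast cell markers, 1 rose in E1 (0 to 2 with 1 library left out) and 3 rose in E2. Cma1, a mast cell chymase, rose in E2 from 0.668 to 6.62 CPM (3.30 ± 0.30, adjusted p = 0.000118).

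Of 7 T and NK cell markers, 0 were called in E1 with edgeR (1 lower at an unadjusted p under 0.05, 0 with DESeq2), and 1 rose and 1 fell in E2, the fall being lost without E0 replicate 1 or either E2 library. Of 8 B cell markers, 0 were called in E1 with edgeR (1 higher and 1 lower at an unadjusted p under 0.05, 1 higher with DESeq2), and 2 rose and 1 fell in E2. The 2 became 0 or 1 without any one of the E0 or E2 libraries. Ighm, the IgM heavy chain, fell in E2 from 234 to 111 CPM (-1.08 ± 0.13, adjusted p = 0.00045). Of 5 platelet and erythroid markers, 1 fell in E1, and 1 rose and 1 fell in E2, and each of these calls was lost without either E2 library. Of 4 fibroblast and endothelial markers, 1 rose in E1 and 2 rose in E2, among them Pecam1 (0.51 ± 0.06, adjusted p = 0.000647).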
